A study of Rattus norvegicus with 9 samples.

Results

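Of 19085 genes in the deposited count table of rat primary osteoblasts, 126 were lower after thrombin and still lower when thrombin was given together with the MEK inhibitor PD0325901 (PD03). The genes were chosen by their measured levels, as read counts scaled to each library's total (CPM). A gene was taken when its mean was at least 3 CPM in the control group and at most 0.67 times the control mean in the thrombin group and in the PD03 group, and when every thrombin and every PD03 library lay below every control library. These limits admitted 1.14% of the 11067 genes that reached 3 CPM in the control group, where 531 genes (4.80%) met the part on thrombin and 689 (6.23%) the part on PD03. The control libraries were common to both parts. The limits used thrombin against control and PD03 against control, so for these genes both differences are given as descriptions with no test. PD03 against thrombin was tested, although the limits also bear on it: a gene had to stay at or below 0.67 times control in PD03, so only a gene at or below 44.8% of control with thrombin could rise in CPM by more than the log2 fold change of 0.58 that a call required. This left room for a rise in 44 of the 126 genes, while a further fall was open to all.

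The cells were osteoblasts from the calvaria of Sprague–Dawley rats, isolated 24 hours after birth according to the methods of the study, although the sample labels name the knee as the tissue. All 3 groups were kept for 7 days in osteogenic medium with β-glycerophosphate, ascorbic acid and dexamethasone, a synthetic glucocorticoid that every group therefore shared. The control group (Control, 3 libraries) received nothing further, the thrombin group (Thrombin, 3 libraries) received thrombin at 20 U/mL, and the PD03 group (PD03, 3 libraries) received the same thrombin together with PD03. The dose of PD03 is given as 0.1 μM in the study's methods and as 0.1 mM in the labels. No library had PD03 without thrombin, so a level that the inhibitor itself lowered and a fall with thrombin that persisted under the inhibitor cannot be told apart. The RNA came from whole cultures, in which fewer cells of a type and less RNA per cell cannot be told apart.

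Thrombin is the serine protease that cleaves fibrinogen, and on cells it cleaves protease-activated receptors, which couple to G proteins and from there to calcium and the MEK-ERK kinase cascade. PD0325901 binds MEK1 and MEK2 outside the ATP site and blocks the phosphorylation of ERK. Osteoblasts lay down collagen and the proteins of mineralising matrix, and they also secrete chemokines, cytokines and the hormone Fgf23 and carry receptors for the IL-6 family of cytokines, through which they exchange signals with blood cells, vessels and kidney.

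The libraries held 15447832 to 19841468 counts. The osteoblast regulator Runx2 (44.1 ± 2.21 CPM in the control group, SD, n = 3) and the collagen gene Col1a1 (48877 CPM) were present. Of 29 osteoblast and osteocyte markers, 18 reached 3 CPM in control, Fgf23 among them, and 6 stayed below 1 CPM in every library. The mineralisation markers Bglap, Ibsp and Dmp1 had control means of 0.146, 0.0216 and 0.148 CPM, and Alpl had means of 1.72 CPM in control, 0.352 CPM in thrombin and 2.95 CPM in PD03. Of 28 genes on a list of genes downstream of MEK, 22 were lower and 0 higher in PD03 than in thrombin by edgeR, where 6.31% of all tested genes were called lower and 9.61% higher. Summed over 19 myeloid and osteoclast markers, of which 14 stayed below 1 CPM in every library, the level was 33.3 to 36.2 CPM in control, 39.4 to 45.1 CPM in thrombin and 29.7 to 30.2 CPM in PD03 libraries. The sum over 16 endothelial and mural markers was 77.4 to 82.7, 118 to 120.0 and 124 to 133 CPM in the same order, that over 19 neural and Schwann markers 195 to 199, 186 to 196 and 267 to 272 CPM, that over 19 skeletal muscle markers 135 to 137, 135 to 142 and 129.7 to 130.8 CPM, and that over 6 lymphoid, erythroid and epithelial markers 6.99 to 8.80, 4.01 to 5.64 and 9.35 to 12.4 CPM. Of the myeloid and osteoclast markers, Ptprc, Tyrobp and Lyz2 had at most 11 counts in any library. Csf1r had means of 0.453, 0.760 and 1.18 CPM in control, thrombin and PD03, and Cd68 had 0.642, 0.486 and 0.418 CPM. The part of these other cells in the levels below was not tested.

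The 126 genes were mostly of low or moderate level. Their median in the control group was 10.7 CPM, against 32.1 CPM over all 11067 genes that reached 3 CPM, and 61 of them lay under 10 CPM and 17 at or above 100 CPM. The median ratio to control was 0.493 in the thrombin group and 0.512 in the PD03 group, where the same ratios over the 11067 genes had medians of 0.990 and 0.917. In both treated groups 37 genes stood at or under 0.5 times control and 8 at or under 0.25 times control. Summed over the 126 genes, the level was 7262 to 7395 CPM in the control libraries, 3663 to 3704 CPM in the thrombin libraries and 3702 to 3729 CPM in the PD03 libraries. Cxcl12 and Ptx3 supplied the largest single shares of that sum, and without them it was 5101 to 5153, 2491 to 2530 and 2427 to 2485 CPM.

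**Figure D1:**
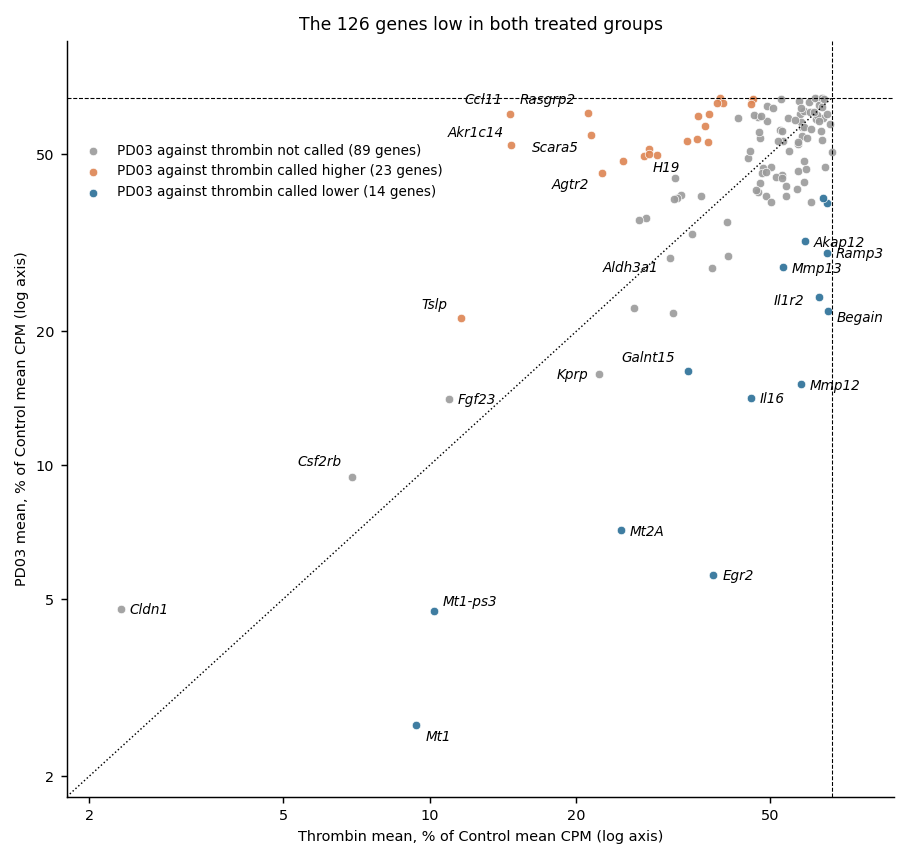
The mean of each of the 126 genes in the PD03 group against its mean in the thrombin group, both in percent of the control mean CPM and on log axes; dashed lines mark the limit of 67%, the dotted line marks equal levels, and colour gives the edgeR call of PD03 against thrombin (89 not called, 23 higher, 14 lower). Mt1, Mt1-ps3, Mt2A and Egr2 lie far below the line of equal levels, Ccl11, Akr1c14, Rasgrp2 and Scara5 far above it, and Csf2rb and Fgf23 near it at a low level in both groups.

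Genes at the edge of the limits differed little from those just outside. Trim21 (66.9% of control in PD03), Tg (66.9% in thrombin) and Ccdc39 (66.9% in PD03) were the last to be admitted. Icoslg (67.1% in thrombin), Mgmt (67.2%) and Gpm6b (67.2%) were the first to be left out, each through its thrombin mean alone. In PD03 they stood at 65.1%, 61.4% and 47.7% of control. With TMM in place of column totals 27 of the genes no longer met the limits. The median log2 fold change of PD03 against control over all tested genes was -0.12 with library totals and -0.004 with TMM. Leaving Col1a1 out of the column totals removed 10 of the genes, among them Chi3l1, Igfbp3, Ksr1, Selenbp1 and Tnfsf13. Single libraries decided some memberships. Igfbp3 left without control library 3, PD03 library 1 or PD03 library 2, and Ramp3 without thrombin library 3. Chi3l1 left without control library 1, PD03 library 2 or PD03 library 3.

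PD03 against thrombin was tested by edgeR over 13256 genes, where a call needed an adjusted p under 0.05 together with a log2 fold change beyond 0.58 in either direction. Each of the 126 genes entered that test, which their control level alone secured. In PD03, 23 of them (18.3%) were called higher than in thrombin and 14 (11.1%) lower, where 9.61% of all tested genes were called higher and 6.31% lower. Of the 23, 20 were among the 44 genes with room for a rise in CPM and 3 among the other 82, and because the limits bounded this difference the shares are a description only. The other 89 were not called, and of these 29 had an adjusted p under 0.05 with a smaller fold. Over all 126 genes the median log2 fold change was 0.12 and the range -2.66 to 2.18, against a median of 0.01 over all tested genes. The TMM scaling of this fit raised PD03 by about 0.10 on the log2 scale relative to library totals, under which the median over all genes was -0.09, and with library totals 18 of the genes were called higher and 15 lower. On the CPM scale every PD03 library lay above every thrombin library for 31 genes (20.4% of the 11067 genes did so) and below for 26 (41.8%).

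**Figure D2:**
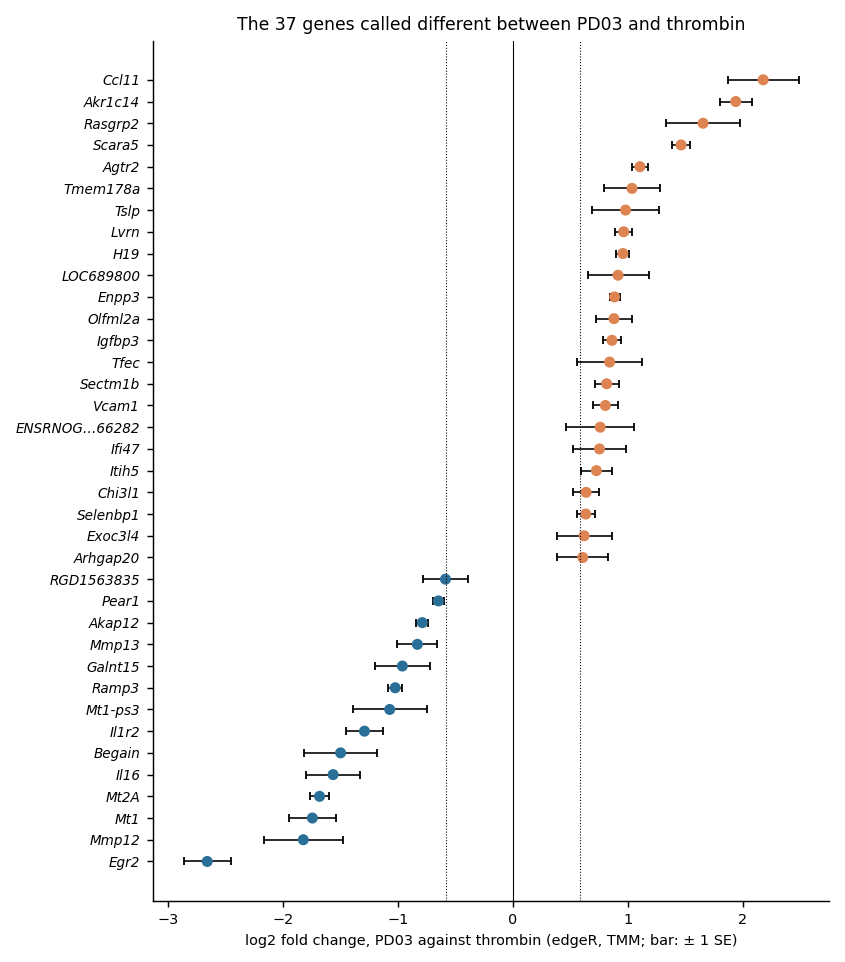
Log2 fold change of PD03 against thrombin for the 37 called genes (points, edgeR with TMM scaling; bars, 1 SE; dotted lines, the call limits of -0.58 and 0.58; orange higher, blue lower). The values run from -2.66 for Egr2 to 2.18 for Ccl11.

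Expressed as the share of the fall with thrombin that was regained in PD03, the median gene regained 2.05%, from -127% for Begain, which lost as much again and more, to 54.9% for Ccl11. Only Ccl11 and Rasgrp2 regained over 50%, and 42 genes stayed within 10% of the fall on either side of the thrombin mean. This share was bounded by the limits that chose the genes, since a gene that came back above 0.67 times control was not taken.

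**Figure D3:**
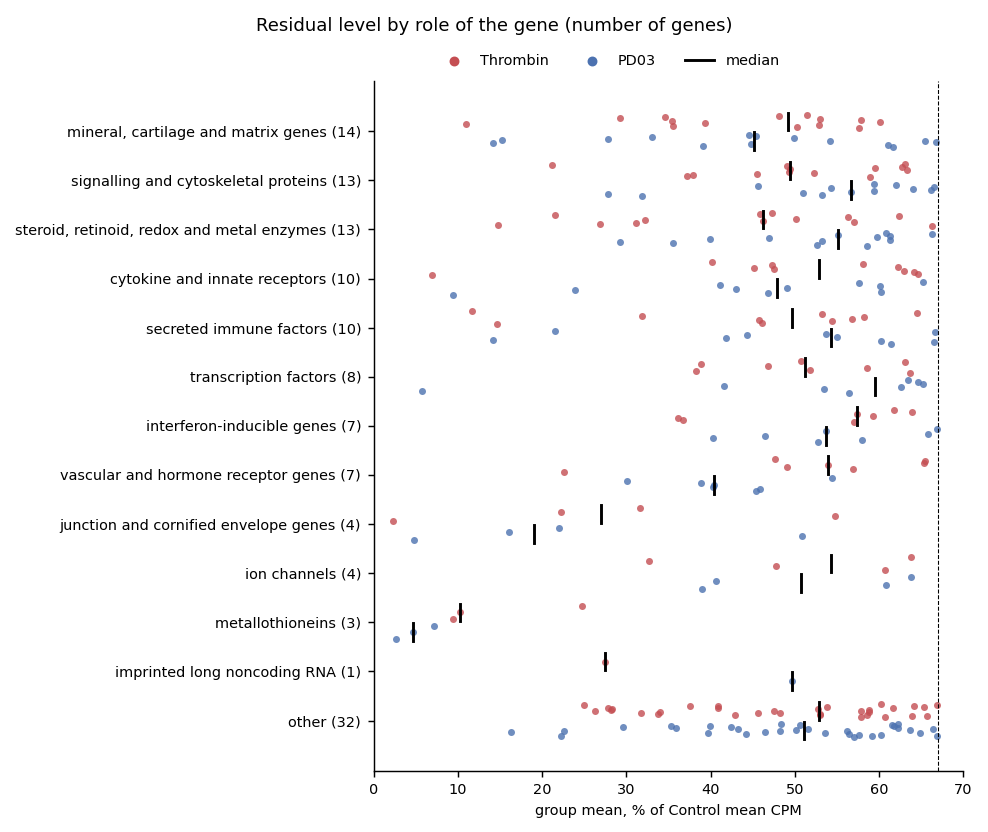
The mean of each gene in the thrombin (red) and PD03 (blue) groups in percent of the control mean CPM, by role; black bars are medians of a role group and the dashed line is the limit of 67%. The metallothioneins and the junction genes hold the lowest medians in both groups. The median is lower in PD03 than in thrombin for most role groups, the vascular and hormone receptor genes among them. It is higher for the secreted immune factors, signalling genes, enzymes, transcription factors and H19.

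The 3 metallothionein genes fell farthest as a group. Metallothioneins are small cysteine-rich proteins that bind zinc and copper and whose genes are switched on by metals and by glucocorticoids. Mt2A stood at 174, 187 and 192 CPM in the control libraries, 43.1, 47.4 and 46.4 CPM in the thrombin libraries and 15.4, 13.2 and 11 CPM in the PD03 libraries. Mt1 stood at 37.7, 36.3 and 36.2 CPM in the control libraries, 3.16, 3.46 and 3.73 CPM in the thrombin libraries and 0.958, 0.926 and 0.987 CPM in the PD03 libraries. Each group of libraries was clear of the others in both genes, and the PD03 libraries lay below the thrombin libraries, so that Mt1 kept 9.39% of its control level with thrombin and 2.6% with PD03. In edgeR PD03 was lower than thrombin for Mt2A (log2 fold change -1.68, SE 0.080, adjusted p = 1.8e-21) and for Mt1 (log2 fold change -1.74, SE 0.21, adjusted p = 1.6e-09). Mt1-ps3, annotated as a processed copy of Mt1, moved the same way (14.2, 15.5 and 16.4 CPM in control, 1.15, 2.01 and 1.54 CPM in thrombin and 0.302, 1.05 and 0.813 CPM in PD03; log2 fold change -1.07, SE 0.32, adjusted p = 0.0048). It had 6, 17 and 14 counts in the PD03 libraries, reads of near-identical copies can be assigned to either, and Mt1-ps3 also overlaps Dclre1c, so its own level is uncertain. Of partner genes outside the set, the zinc exporter Slc30a1 had 38.2 ± 2.2 CPM in control, 30.2 ± 2.86 CPM in thrombin and 39.5 ± 1.21 CPM in PD03, and Mtf1, the zinc-sensing factor that binds metal response elements, had means of 23.9, 22.1 and 19.5 CPM.

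Mt1 and Mt2A are neighbours with no protein-coding gene between them, and the 250 bases before their RefSeq starts are shown because the genes moved together (assembly GRCr8, minus strand, chr19:10832976-10833225 for Mt1 and chr19:10838709-10838958 for Mt2A; capitals mark TGCNCNC, the core of a metal response element, on either strand).
Mt1: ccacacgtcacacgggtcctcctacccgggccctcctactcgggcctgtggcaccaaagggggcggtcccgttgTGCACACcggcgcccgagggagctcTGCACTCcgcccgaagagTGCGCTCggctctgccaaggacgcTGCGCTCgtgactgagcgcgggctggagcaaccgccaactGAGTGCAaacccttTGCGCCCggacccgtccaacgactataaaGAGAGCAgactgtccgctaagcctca
Mt2A: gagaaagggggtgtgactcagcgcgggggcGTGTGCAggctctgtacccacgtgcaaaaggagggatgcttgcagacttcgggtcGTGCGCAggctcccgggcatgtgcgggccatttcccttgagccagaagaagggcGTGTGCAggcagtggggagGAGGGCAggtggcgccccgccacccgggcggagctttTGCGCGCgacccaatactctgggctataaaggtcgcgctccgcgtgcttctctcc
The core matched 7 times in Mt1 and 5 times in Mt2A, and both stretches also hold a TATAAA box. The core is short and common: 49.6% of all 33469 RefSeq promoters of 300 bases (250 before and 50 after the start) held at least 1 match, as did 60.6% of the promoters of genes at 3 CPM or more in control and 55.2% of those of the set.

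Egr2, a zinc finger transcription factor of the early growth response family, had the lowest fold change of PD03 against thrombin. Its level was 18.2, 15 and 16.1 CPM in the control libraries, 7.04, 5.92 and 5.86 CPM in the thrombin libraries and 0.756, 1.11 and 0.929 CPM in the PD03 libraries. No libraries of different groups overlapped, and the PD03 libraries, at 15, 18 and 16 counts, kept 5.68% of the control mean where the thrombin libraries kept 38.2% (edgeR, PD03 against thrombin: log2 fold change -2.66, SE 0.21, adjusted p = 1.5e-14). Of all genes at 3 CPM or more in control, 1.14% met the limits. Egr2 was the only gene of the list downstream of MEK to do so, 1 of 24 at that level. Its relatives Egr1 and Egr3 did not meet them: Egr1 had means of 349.8, 248 and 17.8 CPM in control, thrombin and PD03, and Egr3, at 2.18 CPM in control, was below the limit of 3 CPM. Egr1 was lower in PD03 than in thrombin (log2 fold change -3.70, SE 0.12, adjusted p = 1.7e-27). The 250 bases before the RefSeq start of Egr2 are given because serum response factor, which acts on early response genes, binds the CArG box (GRCr8, minus strand, chr20:21054442-21054691; capitals mark the CArG box).
Egr2: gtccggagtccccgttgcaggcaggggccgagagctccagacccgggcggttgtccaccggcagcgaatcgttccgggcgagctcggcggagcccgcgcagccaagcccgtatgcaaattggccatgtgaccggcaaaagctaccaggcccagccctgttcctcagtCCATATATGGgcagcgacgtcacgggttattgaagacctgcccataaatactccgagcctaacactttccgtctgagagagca
A CArG box was found in 1.72% of the 116 promoters of 91 of the genes, in 1.36% of the promoters of genes at 3 CPM or more in control and in 1.64% of all promoters.

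**Figure D4:**
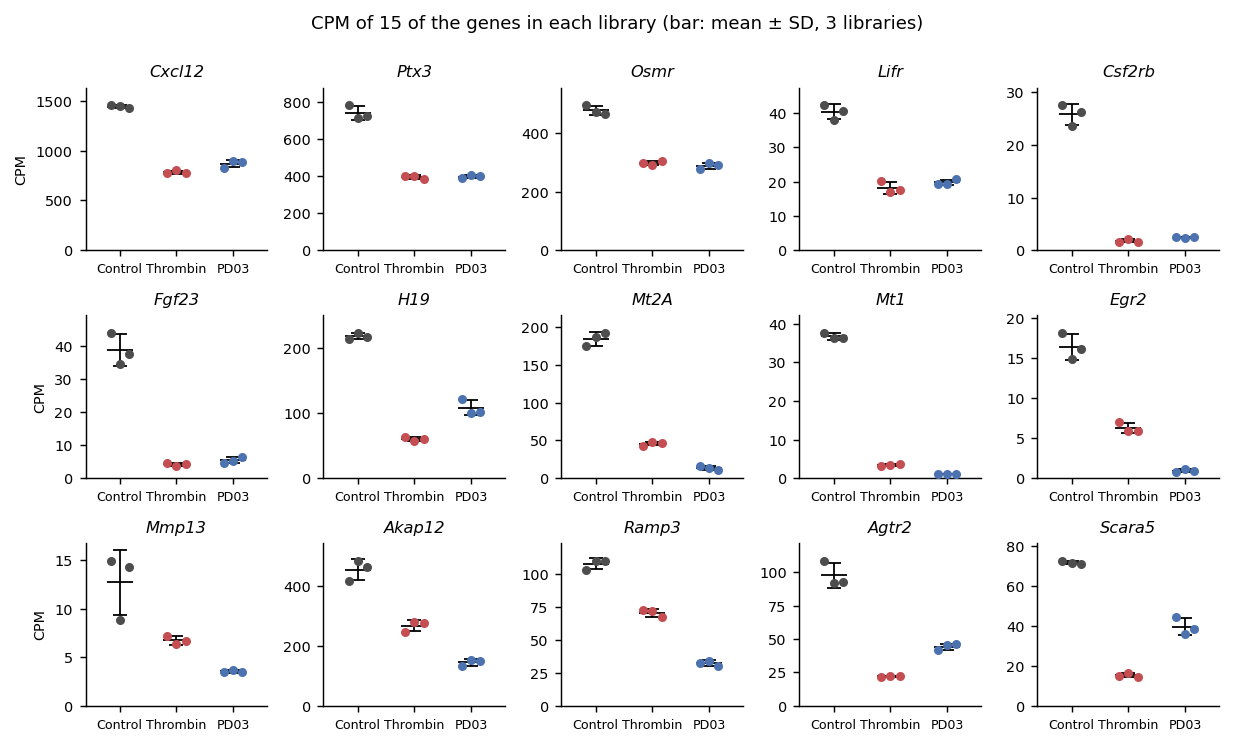
CPM of 15 of the genes in each library (points), with the mean and SD of 3 libraries (bars), by group, on linear axes from 0. Mt2A, Mt1, Egr2, Akap12, Ramp3 and Mmp13 step down from control to thrombin to PD03, H19, Agtr2 and Scara5 lie in PD03 between thrombin and control, and Ptx3, Osmr and Lifr stand at similar levels in thrombin and PD03.

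Receptors of cytokines and of innate immunity formed a group of 10. Osmr and Lifr, the signalling chains for oncostatin M and leukaemia inhibitory factor that pair with gp130 (Il6st), are neighbouring genes. Osmr stood at 496, 474 and 466 CPM in the control libraries, 297, 292 and 304 CPM in the thrombin libraries and 276, 297 and 290.3 CPM in the PD03 libraries. Lifr stood at 42.2, 37.9 and 40.6 CPM in the control libraries, 20.2, 16.9 and 17.4 CPM in the thrombin libraries and 19.2, 19.4 and 20.6 CPM in the PD03 libraries. The thrombin and PD03 libraries of both genes overlapped, and neither was called (edgeR: Osmr log2 fold change 0.05, SE 0.037, adjusted p = 0.27 and Lifr log2 fold change 0.22, SE 0.085, adjusted p = 0.03, the latter under the fold limit). Outside the set, the ligand Lif went the other way with thrombin, with means of 40.2 CPM in control, 115 CPM in thrombin and 8.07 CPM in PD03 (thrombin against control, log2 fold change 1.54, SE 0.066, adjusted p = 1.1e-22), and Il6st had means of 1376, 1281 and 928 CPM.

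Csf2rb, the shared signalling chain of the receptors for GM-CSF, IL-3 and IL-5, was among the lowest of all relative to control. It measured 27.6, 23.7 and 26.2 CPM in the control libraries, 1.58, 2.12 and 1.66 CPM in the thrombin libraries and 2.52, 2.35 and 2.44 CPM in the PD03 libraries. All PD03 libraries lay above all thrombin libraries, but both kept under 10% of control (6.92% and 9.42%), and the difference between them was not called (log2 fold change 0.54, SE 0.20, adjusted p = 0.024). Csf2ra, the chain specific to GM-CSF, had 18 ± 0.505, 17.8 ± 0.818 and 19 ± 1.25 CPM and was not in the set. Il1r2, a decoy receptor that captures IL-1, fell further in PD03, from 6.92, 7.82 and 7.94 CPM in thrombin to 3.48, 2.78 and 2.32 CPM (log2 fold change -1.29, SE 0.16, adjusted p = 6.1e-09), with 11.4, 12 and 12.5 CPM in control. Vcam1, an adhesion molecule for leukocytes, went up in part, from 10.5, 10.2 and 8.82 CPM to 17.7, 15.1 and 15.2 CPM against 27.3, 23.3 and 23.1 CPM in control (log2 fold change 0.80, SE 0.11, adjusted p = 2.0e-08). The interferon-γ receptor chain Ifngr1 kept 64.2% and 60.3% of control, and Tlr3, a sensor of double-stranded RNA, 58.1% and 57.6%. These, Il20rb and Slamf8 had overlapping thrombin and PD03 libraries and were not called. Eda2r, a receptor of the TNF receptor superfamily, was lower in each PD03 library than in each thrombin library without reaching the fold limit (log2 fold change -0.37, SE 0.13, adjusted p = 0.018).

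The 10 secreted immune factors included Cxcl12 and Ptx3, the genes of the set with the highest control means in CPM, which is not corrected for length. Cxcl12, the chemokine by which stromal cells hold blood progenitors in the marrow, stood at 1456, 1445 and 1426 CPM in the control libraries, 771, 802 and 780.5 CPM in the thrombin libraries and 827, 895 and 884 CPM in the PD03 libraries. PD03 lay above thrombin in every library, a difference far smaller than the fall from control (edgeR: log2 fold change 0.25, SE 0.033, adjusted p = 3.2e-08, not called). The scavenging receptor of Cxcl12, Ackr3, stood in PD03 above its control level (means of 213, 125 and 255 CPM) and so was not in the set, and the signalling receptor Cxcr4 had at most 7 counts in any library. Ptx3, a pentraxin that binds microbes and matrix, stood at 786, 718 and 728 CPM in the control libraries, 402, 400.4 and 385 CPM in the thrombin libraries and 391, 406 and 401 CPM in the PD03 libraries. Its thrombin and PD03 libraries overlapped (log2 fold change 0.11, SE 0.036, adjusted p = 0.0083, not called). Ptx3 overlaps Veph1 in the annotation. Lcn2, a lipocalin that binds iron-carrying siderophores, stood at 403, 392 and 401 CPM in the control libraries, 246, 215 and 235 CPM in the thrombin libraries and 227, 221 and 210.1 CPM in the PD03 libraries. Its thrombin and PD03 libraries overlapped as well (log2 fold change 0.02, SE 0.041, adjusted p = 0.75).

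The low members of that group spread in both directions. Ccl11 (eotaxin), which draws eosinophils, measured 4.93, 3.63 and 3.95 CPM in the control libraries, 0.607, 0.391 and 0.829 CPM in the thrombin libraries and 3.02, 2.22 and 2.44 CPM in the PD03 libraries. It was the gene with the largest rise in PD03 over thrombin (log2 fold change 2.18, SE 0.31, adjusted p = 1.0e-07), on 10, 7 and 14 counts in thrombin. Tslp, a cytokine best known from epithelia, measured 11.4, 8.54 and 9.06 CPM in the control libraries, 1.4, 0.671 and 1.3 CPM in the thrombin libraries and 1.36, 1.98 and 2.9 CPM in the PD03 libraries, and its call as higher in PD03 (log2 fold change 0.98, SE 0.29, adjusted p = 0.0048) was lost without thrombin library 2 (adjusted p = 0.060) or PD03 library 3 (adjusted p = 0.091). The thrombin and PD03 ranges of Tslp touched, with 1 PD03 library below the highest thrombin library. Il16, a chemoattractant for CD4+ cells, was lower again in PD03 (8.95, 8.67 and 7.44 CPM in control, 4.37, 3.3 and 3.79 CPM in thrombin and 1.51, 1.23 and 0.813 CPM in PD03; log2 fold change -1.56, SE 0.23, adjusted p = 3.1e-07). Chi3l1, a chitinase-like glycoprotein, was called higher in PD03 (log2 fold change 0.64, SE 0.11, adjusted p = 6.9e-06) and Lgals9 (galectin-9) fell just short of the fold limit (log2 fold change 0.57, SE 0.093, adjusted p = 1.6e-06). Il7 and Tnfsf13 (APRIL), growth factors of lymphocytes, kept 56.9% and 41.9%, and 64.6% and 66.7% of control and were not called.

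The limits admitted 1.14% of all genes at 3 CPM or more in control. Of the wider list of cytokines, chemokines and their receptors, 6 of the 35 genes at that level were in the set (Cxcl12, Osmr, Lifr, Il16, Ccl11 and Tnfsf13). Of its 43 tested genes, edgeR called 10 higher and 12 lower with thrombin against control and 6 higher and 16 lower in PD03 against thrombin, where 2.62% and 5.44%, and 9.61% and 6.31% of all tested genes were called. These 43 include the 6 genes of the set, whose falls from control the limits fixed. The counts against control are therefore a description only. Of 19 NF-kappaB target genes at 3 CPM or more, Lcn2 and Vcam1 were in the set, beside the same 1.14% of all genes. The binding site of NF-kappaB was found in 9.48% of the set's promoters, in 5.01% of those of genes at 3 CPM or more and in 4.18% of all. Those of the set were the promoters of Ptx3, Lcn2, Vcam1, Tslp, Slamf8, Begain, Dmrta2, Dsc2, Ramp3, Steap4 and RGD1561149.

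There were 7 genes induced by interferons. Ifitm1, a membrane protein that restricts viral entry, was the most abundant in CPM, at 115, 108 and 114 CPM in the control libraries, 40.1, 39.8 and 41.9 CPM in the thrombin libraries and 49.3, 41.6 and 44.9 CPM in the PD03 libraries. In PD03, 2 of 3 libraries lay above the thrombin range, by less than the fold limit (log2 fold change 0.26, SE 0.062, adjusted p = 0.00046). Psmb9, a catalytic subunit of the immunoproteasome, the GTPase Gbp2 and the antibody receptor Trim21 kept 52.8% to 66.9% of control in both groups and were not called. Ifi47, an interferon-inducible GTPase, was the member called higher in PD03, at 4.31, 4.86 and 4.79 CPM in control, 1.64, 2.01 and 1.48 CPM in thrombin and 2.77, 2.59 and 2.73 CPM in PD03 (log2 fold change 0.75, SE 0.23, adjusted p = 0.0063). Mnda, a nuclear protein of the interferon-inducible HIN-200 family, lay lower in each PD03 library than in each thrombin library without reaching the fold limit (log2 fold change -0.25, SE 0.060, adjusted p = 0.00042). Of the list of 29 tested interferon response and antigen processing genes, 10 were lower and 0 higher with thrombin (5.44% and 2.62% of all tested genes). In PD03 against control 6 were lower and 0 higher (4.07% and 4.90% of all). In PD03 against thrombin 5 were higher and 1 lower (9.61% and 6.31% of all). Gbp2, Ifitm1 and Psmb9 of the set are among the 29. The limits fixed their falls from control, so the counts against control are a description only. The core of the interferon-stimulated response element matched 6.03% of the set's promoters, 2.90% of those of genes at 3 CPM or more and 3.92% of all, on either strand. Of the interferon-inducible genes only Trim21 and Gbp2 held it. The other promoters of the set with a match were those of Akr1c14, Lgals9, Mmp13, Slamf8 and Vcam1.

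Genes of mineral handling, cartilage and matrix made up the largest named group, with 14 genes. Fgf23, the bone hormone that lowers phosphate by acting on the kidney, measured 44, 34.7 and 37.7 CPM in the control libraries, 4.61, 3.74 and 4.38 CPM in the thrombin libraries and 4.69, 5.25 and 6.5 CPM in the PD03 libraries. Every PD03 library lay above every thrombin library, at 14.1% of control against 10.9%, and the difference was under the fold limit (edgeR: log2 fold change 0.46, SE 0.15, adjusted p = 0.011). Fam20c, the Golgi kinase that phosphorylates secreted matrix proteins and also Fgf23, measured 167, 172 and 175 CPM in the control libraries, 94.3, 94.3 and 83.1 CPM in the thrombin libraries and 81.3, 75.8 and 73.3 CPM in the PD03 libraries. Its PD03 libraries were all below its thrombin libraries in CPM, by less than the fold limit (log2 fold change -0.14, SE 0.052, adjusted p = 0.025). Enpp3, an ectoenzyme that hydrolyses extracellular nucleotides, measured 314, 307 and 301 CPM in the control libraries, 113, 103 and 111 CPM in the thrombin libraries and 197, 185 and 181 CPM in the PD03 libraries and was called higher in PD03 (log2 fold change 0.88, SE 0.043, adjusted p = 4.5e-21), having regained 39.7% of its fall.

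Igfbp3, a carrier of insulin-like growth factors, rose in part with PD03 (45.6, 44.5 and 46.9 CPM in control, 16.8, 17.8 and 19.4 CPM in thrombin and 29, 28.7 and 33.9 CPM in PD03; log2 fold change 0.86, SE 0.080, adjusted p = 3.4e-12). Stc2, a glycoprotein hormone that inhibits the cleavage of those carriers by pappalysin, kept 51.5% and 44.5% of control and was not called. Col2a1, the fibrillar collagen of cartilage, kept 57.6% and 61.7%, and Ptprv, a tyrosine phosphatase of osteoblasts, 34.5% and 33.1%. Neither was called. Of all genes at 3 CPM or more in control, 1.14% were in the set. Col2a1 was the only one among 16 chondrocyte and tendon markers at that level. Summed over 29 such markers, the level was 849 to 871 CPM in control, 718 to 742 CPM in thrombin and 1354 to 1443 CPM in PD03 libraries. Of 23 tested, 15 were higher and 1 lower in PD03 against control (4.90% and 4.07% of all tested genes). Col2a1 is among the 23 and the limits fixed its fall from control, so these counts are a description only. The matrix glycoprotein genes Itih5 (log2 fold change 0.73, adjusted p = 2.3e-05) and Olfml2a (log2 fold change 0.88, adjusted p = 1.2e-05) were called higher in PD03. None of the 34 genes at 3 CPM or more on the list of other collagens and collagen-modifying enzymes was in the set. Of all genes at that level 1.14% were, so this absence is not read as a result.

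Mmp13 and Mmp12, neighbouring genes of collagenase-3 and macrophage elastase, were the matrix genes lowered again in PD03. Mmp13 measured 15, 8.87 and 14.3 CPM in the control libraries, 7.22, 6.37 and 6.63 CPM in the thrombin libraries and 3.43, 3.7 and 3.48 CPM in the PD03 libraries. The PD03 libraries lay below the thrombin libraries, although control library 2 stood well below the other controls (log2 fold change -0.83, SE 0.17, adjusted p = 9.8e-05). Mmp12 measured 3.4, 3.5 and 2.78 CPM in the control libraries, 1.76, 2.18 and 1.66 CPM in the thrombin libraries and 0.454, 0.494 and 0.522 CPM in the PD03 libraries, on 9, 8 and 9 counts in PD03 (log2 fold change -1.82, SE 0.34, adjusted p = 1.9e-05). Of 34 matrix protease and inhibitor genes at 3 CPM or more in control these were the only members. Of all genes at that level 1.14% were in the set. The stretch before the start of Mmp13 is given because AP-1 factors, which act downstream of ERK, bind TGANTCA (GRCr8, plus strand, chr8:12782579-12782828; capitals mark the match).
Mmp13: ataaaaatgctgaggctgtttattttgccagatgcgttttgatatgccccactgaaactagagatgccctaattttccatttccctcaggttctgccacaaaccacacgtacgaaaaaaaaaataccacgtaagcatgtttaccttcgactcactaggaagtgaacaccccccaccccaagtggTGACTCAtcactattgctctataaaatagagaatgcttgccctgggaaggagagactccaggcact
The match begins 66 bases before the start and a TATAAA box follows it. TGANTCA on either strand was found in 8.62% of the set's promoters, 4.64% of those of genes at 3 CPM or more and 7.33% of all.

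H19, an imprinted long noncoding RNA expressed from the maternal allele, measured 215, 224 and 217 CPM in the control libraries, 63, 57.6 and 59.7 CPM in the thrombin libraries and 122, 101 and 103 CPM in the PD03 libraries. The 3 groups did not overlap, and PD03 stood at 49.7% of control against 27.5% with thrombin (log2 fold change 0.96, SE 0.056, adjusted p = 2.4e-18). Its imprinted neighbour Igf2, outside the set, fell to a like share of control with thrombin (means of 296 and 93.7 CPM) and came back to 273 CPM in PD03 (PD03 against thrombin, log2 fold change 1.64, SE 0.044, adjusted p = 3.2e-30). Tnnt3, a troponin T gene of fast muscle with 1 protein-coding gene between it and H19, was in the set at 5.48, 3.3 and 3.41 CPM and was not called between PD03 and thrombin (log2 fold change 0.15, adjusted p = 0.55).

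**Figure D5:**
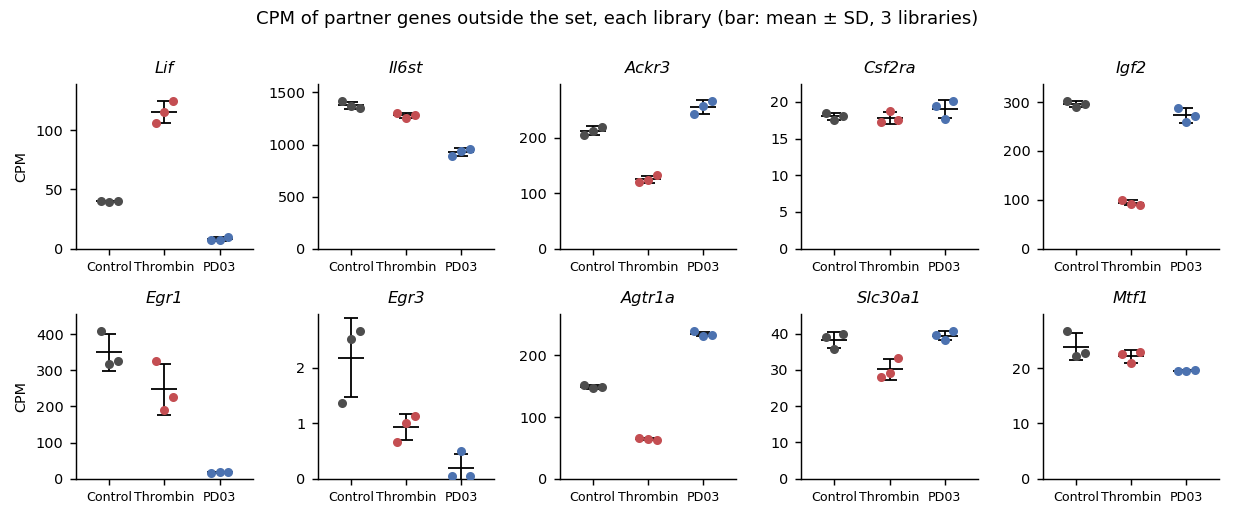
CPM in each library (points) of 10 genes outside the set that are partners, ligands or relatives of genes in it, with the mean and SD of 3 libraries (bars), on linear axes from 0. Lif stands highest in thrombin and lowest in PD03, Igf2, Ackr3 and Agtr1a fall with thrombin and stand near or above control in PD03, and Egr1 and Egr3 are lowest in PD03.

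Of 13 enzymes and carriers of steroids, retinoids, redox chemistry and metals, 3 were called higher in PD03 than in thrombin and 0 lower. Of the 126 genes 18.3% were called higher and 11.1% lower, and of all tested genes 9.61% and 6.31%. Akr1c14, a hydroxysteroid dehydrogenase of the aldo-keto reductase family, measured 20.2, 19 and 18.4 CPM in the control libraries, 2.61, 2.85 and 3.02 CPM in the thrombin libraries and 10.9, 9.51 and 9.87 CPM in the PD03 libraries (log2 fold change 1.94, SE 0.14, adjusted p = 2.5e-15). Scara5, a scavenger receptor that takes up ferritin, measured 72.8, 71.5 and 71 CPM in the control libraries, 15.1, 16.5 and 14.6 CPM in the thrombin libraries and 44.3, 36 and 38.5 CPM in the PD03 libraries (log2 fold change 1.46, SE 0.077, adjusted p = 7.8e-20). In both genes the PD03 libraries lay between the other groups with no overlap. Selenbp1, which oxidises methanethiol, was the third (log2 fold change 0.63, adjusted p = 3.7e-09), and Steap4, a metalloreductase, and Cdo1, which begins the breakdown of cysteine, were higher by less than the fold limit (0.47 and 0.51 on the log2 scale). The others were not called. Aldh3a1, an aldehyde dehydrogenase, measured 55.1, 47.4 and 52.6 CPM in the control libraries, 17.2, 17.2 and 14 CPM in the thrombin libraries and 17.9, 13.2 and 14.3 CPM in the PD03 libraries, with overlapping treated libraries (log2 fold change 0.02, SE 0.10, adjusted p = 0.9). Hsd11b1, which regenerates active glucocorticoid from its inert form, measured 100.5, 92.1 and 96.2 CPM in the control libraries, 59.8, 60.9 and 59.3 CPM in the thrombin libraries and 60.9, 59.6 and 56.7 CPM in the PD03 libraries, likewise overlapping (log2 fold change 0.08, SE 0.054, adjusted p = 0.25). Aldh1a2, which makes retinoic acid, kept 26.9% and 35.5% of control, and Ch25h, which makes 25-hydroxycholesterol, 32.2% and 39.9%.

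With Mt1, Mt2A and Lcn2, Hsd11b1 was 1 of 4 genes of the set on a list of 19 glucocorticoid response genes at 3 CPM or more in control. The share of all genes at that level that were in the set was 1.14%. Of the 21 tested genes on that list, 6 were lower and 1 higher with thrombin, 8 lower and 1 higher in PD03 against control, and 8 lower and 3 higher in PD03 against thrombin. Of all tested genes, 5.44% were lower and 2.62% higher, 4.07% lower and 4.90% higher, and 6.31% lower and 9.61% higher in the same order. The 4 genes of the set are among the 21, and the limits fixed their falls from control. The counts against control are therefore a description only. A palindromic glucocorticoid response element was found in 0 of the 116 promoters of the set, in 0.206% of those of genes at 3 CPM or more and in 0.439% of all.

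The 7 vascular and hormone receptor genes divided. Agtr2, the type 2 receptor of angiotensin II, measured 109, 92 and 92.6 CPM in the control libraries, 21.9, 22.1 and 22.2 CPM in the thrombin libraries and 41.7, 45.4 and 46 CPM in the PD03 libraries. PD03 lay above thrombin in every library, at 45.4% of control (log2 fold change 1.10, SE 0.070, adjusted p = 3.7e-17). Agtr1a, the type 1 receptor and not in the set, had means of 149, 64.4 and 235 CPM. Ramp3, which gives the calcitonin receptor-like receptor its affinity for adrenomedullin, measured 103, 110.1 and 110.0 CPM in the control libraries, 72.8, 71.6 and 67 CPM in the thrombin libraries and 32.6, 34.3 and 30.3 CPM in the PD03 libraries. Here PD03 lay below thrombin in every library (log2 fold change -1.02, SE 0.060, adjusted p = 1.9e-18), as for Pear1, a platelet and endothelial receptor with EGF-like repeats (147, 143 and 151 CPM in control, 97.2, 98.1 and 93.1 CPM in thrombin and 58.9, 59.5 and 53.3 CPM in PD03; log2 fold change -0.65, SE 0.051, adjusted p = 2.2e-14). Pear1 overlaps Lrrc71, another gene of the set. Angpt1, a ligand of the endothelial receptor Tie2 (log2 fold change -0.22, SE 0.059, adjusted p = 0.0019), and Gja5, connexin 40 (log2 fold change -0.32, SE 0.085, adjusted p = 0.0018), were lower in PD03 by less than the fold limit. The endothelin receptor Ednra (log2 fold change -0.18, SE 0.11, adjusted p = 0.17) and the prostaglandin carrier Slco2a1 (log2 fold change 0.29, SE 0.10, adjusted p = 0.011) were not called.

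Of 13 signalling and cytoskeletal genes, Akap12, a scaffold for protein kinases A and C, was the most abundant in CPM, at 417, 485 and 462 CPM in the control libraries, 247, 281 and 275 CPM in the thrombin libraries and 132, 152 and 150.3 CPM in the PD03 libraries. Its PD03 libraries lay below its thrombin libraries by more than its thrombin libraries spread (log2 fold change -0.79, SE 0.052, adjusted p = 8.8e-17). Ksr1, a scaffold of the Raf-MEK-ERK cascade itself, kept 63.3% of its control level with thrombin and 66.2% with PD03, with overlapping treated libraries (log2 fold change 0.16, SE 0.053, adjusted p = 0.0092). Dapk1, a calcium- and calmodulin-dependent death-associated kinase, kept 52.3% and 56.6% and was under the fold limit (log2 fold change 0.21, SE 0.049, adjusted p = 0.00032). Rasgrp2, an exchange factor for Rap1, came back furthest of this group, from 0.971, 0.615 and 0.474 CPM in thrombin to 2.22, 1.73 and 2.09 CPM in PD03 against 3.46, 2.85 and 3.43 CPM in control (log2 fold change 1.65, SE 0.32, adjusted p = 3.0e-05). Arhgap20 was called higher close to the fold limit (log2 fold change 0.61, SE 0.22, adjusted p = 0.021). The remaining 8 genes of the group, among them Card10 and Myo1f, were not called.

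Beside Egr2, 1 of the other genes grouped as regulators of transcription was called between PD03 and thrombin. Tfec, a relative of Mitf, was called higher in PD03 (3.46, 3.43 and 2.98 CPM in control, 1.03, 1.62 and 1.18 CPM in thrombin and 2.17, 1.42 and 2.84 CPM in PD03; log2 fold change 0.84, SE 0.29, adjusted p = 0.013), with 1 PD03 library inside the thrombin range. Mab21l1, which overlaps Nbea and had the highest control mean of the group in CPM (33.3), Zfp704, Foxs1, Zfp202, Nfe2 and Dmrta2 were not called. Their thrombin means were 46.8% to 63.7% and their PD03 means 41.6% to 64.6% of control.

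Of the 4 junction and cornified envelope genes, none was called between PD03 and thrombin. The tight junction gene Cldn1 had 68, 50 and 50 counts in the control libraries, 2, 0 and 2 in the thrombin libraries and 5, 2 and 2 in the PD03 libraries, too few in the treated groups for a fold. Kprp, a keratinocyte proline-rich protein, stood at 7.76, 8.16 and 7.64 CPM in the control libraries, 1.94, 1.34 and 1.95 CPM in the thrombin libraries and 1.11, 1.05 and 1.63 CPM in the PD03 libraries. Ppl, the desmosome-linked periplakin, kept 31.6% and 22% of control, and the desmosomal cadherin Dsc2 54.7% and 50.8%. The 4 ion channel genes (Kcnj16, Cacna1d, Scn7a and Scnn1a) had control means under 10 CPM and were not called, with Cacna1d lower (log2 fold change -0.53, SE 0.20, adjusted p = 0.021) and Kcnj16 higher (log2 fold change 0.46, SE 0.17, adjusted p = 0.02) by less than the fold limit. Cacna1d was called lower with library totals (log2 fold change -0.63) and without thrombin library 2 (-0.59), thrombin library 3 (-0.58) or PD03 library 3 (-0.67).

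No role was assigned to the other 32 genes, 4 of which have no symbol in the table. Of these 32, 6 were called higher in PD03 and 3 lower, where 9.61% and 6.31% of all tested genes were. Lvrn, a membrane aminopeptidase, was the most abundant of the called ones in CPM (67.6, 61.8 and 61.7 CPM in control, 18.6, 18.1 and 17.4 CPM in thrombin and 31.8, 34.9 and 31.8 CPM in PD03; log2 fold change 0.96, SE 0.073, adjusted p = 8.2e-15), and its PD03 libraries did not overlap either group. Tmem178a (1.04), LOC689800 (0.91) and Sectm1b (0.81) were further genes called higher, by the log2 fold change given with each, and Begain (-1.50) and Galnt15 (-0.96), which attaches sugars to proteins, were called lower.

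Other gene lists held few or none of the 126 genes. None came from the lists of Wnt, BMP and TGF-β, Hedgehog and Notch signalling, complement, cell adhesion, axon guidance, craniofacial transcription factors, contractile genes, adipocyte genes or the cell cycle, which had from 9 to 47 genes at 3 CPM or more in control. The limits admitted only 1.14% of all genes at that level, so an absence from lists of this size is not read as a result. From the osteoblast and osteocyte list only Fgf23 was in the set, of 18 at 3 CPM or more.

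Of the 126 genes, 117 matched a gene of the RefSeq annotation of GRCr8. Among these, 6 pairs had no protein-coding gene between them: Osmr and Lifr, Mt1 and Mt2A, Mmp13 and Mmp12, Lgals9 and Ksr1, Slco2a1 and Rab6b, and Lrrc71 and Pear1, and 5 further pairs had 1 to 4. The paired genes did not always share a direction between PD03 and thrombin. Ramp3 and Igfbp3, with 2 protein-coding genes between them, were called in opposite directions (log2 fold changes of -1.02 and 0.86), whereas Mt1 and Mt2A were both called lower (-1.74 and -1.68). For 42 genes another RefSeq gene overlaps, and since it is not given whether the counting used strand, reads from the pair cannot be told apart. These include Parp10 with Plec, Tg with Sla and Heph with Vsig4.

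Compared per length, as the deposited FPKM, Mt2A was the highest of the set in control, with means of 472 FPKM in control, 117 FPKM in thrombin and 33.8 FPKM in PD03. It was followed by Ptx3 (387, 206 and 208 FPKM), Lcn2 (352, 205 and 194 FPKM) and Cxcl12 (197, 107 and 118 FPKM). In the PD03 group Mt2A was below all 3 of these.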

How the data were processed

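Polyadenylated RNA was read in 9 libraries, with 3 libraries in each of 3 groups named by the labels; the labels do not say whether the libraries came from separate animals or cultures, so p-values measure the spread between these libraries. The deposited table holds gene counts made by the authors, which per the study's methods came from HISAT2 and featureCounts on Rnor_6.0, whereas the submitters' processing notes name HISAT2, HTSeq 0.13.5 and mRatBN7.2. Neither the annotation release nor the strand setting of the counting was stated there. The deposited FPKM values of the authors, which divide by gene length and depth, served for levels per length and as an alternative.

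CPM was computed from column totals of 15447832 to 19841468 counts. The 126 genes, the gene lists and the role groups were chosen with earlier results of these data known. The genes with values in the text were the 10 with the highest control CPM, the 10 lowest relative to control in both groups, the 5 with the largest called change in each direction between PD03 and thrombin, list members and those nearest the limits; further genes were chosen after their values were seen to fill the role groups, as were the partner genes outside the set. PD03 against thrombin was tested on the counts with edgeR 4.0.16 (quasi-likelihood, TMM, filterByExpr with a minimum count of 10, all 9 libraries in 1 fit, Benjamini-Hochberg over 13256 genes, two-sided). Tested on simulated data for that comparison with 13125 genes, the fit recovered 93.9% of 99 genes changed by 1 on the log2 scale and 98.0% of 99 changed by 2. DESeq2 1.42.0 and limma 3.58.1 were alternatives. Promoters came from RefSeq (GRCr8), and no coordinate of the authors' build was used. The motifs for metals, STAT and interferon were added after the values were seen; a STAT site was found in 12.9% of the set's promoters, 6.78% of those of genes at 3 CPM or more and 8.87% of all. Sites of Sp1 (GGGCGG), Runx (TGTGGT), CRE (TGACGTC), E-box (CACGTG), TEAD (GGAATG), GLI (CCACCCA) and RBPJ (GTGGGAA) were also searched on both strands. They were found in 51.7%, 12.1%, 1.72%, 8.62%, 18.1%, 8.62% and 2.59% of the set's promoters, in 63.8%, 12.1%, 5.41%, 9.62%, 11.1%, 8.98% and 6.24% of those of genes at 3 CPM or more and in 33.1%, 17.3%, 3.22%, 6.42%, 14.2%, 8.87% and 6.29% of all. Promoters were counted per start, so a gene with overlapping starts enters several times, as did Ctxnd1 for the STAT site and Fam169b for TEAD. The values of 1 gene of the set are not reported here.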

Additional observations from a re-analysis of the deposited data

How the results depend on the processing

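The number of genes that met the limits was 126 with column totals, 99 with TMM or DESeq2 scaling, 76 with the deposited FPKM values, 37 and 350 at fold limits of 0.5 and 0.8, 190 and 65 at a control minimum of 1 and 10 CPM, 131 with overlap allowed and 123 with column totals without Col1a1, which was added after seeing the data. Leaving out 1 library at a time gave 122 to 144 genes; 93 of the 126 stayed in every such set, and 62 of the 126 were kept under TMM, DESeq2 and FPKM scaling alike. Col1a1 stood at a mean of 68598 CPM in PD03 against 43647 CPM in thrombin.

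In PD03 against thrombin, 23 genes higher and 14 lower became 10 and 9 with glmTreat, 44 and 22 with no fold threshold and 6 and 9 at a log2 fold change above 1. Testing the log2 of the deposited FPKM with limma gave 10 higher and 11 lower with 1 added and 14 and 14 with 0.1 added. Over all tested genes, 1274 higher and 836 lower became 671 and 380 with glmTreat, 3358 and 3250 with no fold threshold, 626 and 309 above 1, and 535 and 717 with FPKM and 1 added, and with library totals the split turned to 1022 higher and 1176 lower. For the shifts with FPKM and library totals the cause was not tested. Leaving out 1 library gave 20 to 24 genes of the set higher and 13 to 15 lower, and 1218 to 1300 and 822 to 890 over all genes.

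With the replicate number as a block, 23 genes were higher and 13 lower, and 1264 and 839 over all genes. The numbers marked no shared origin in the labels, and deviations of libraries with the same number correlated by -0.046 to 0.052, so the block was not used further. Tslp lost its call without thrombin library 2 (adjusted p = 0.060) or PD03 library 3 (adjusted p = 0.091), and Mt1-ps3 without PD03 library 1 (adjusted p = 0.084). Csf2rb was called higher without thrombin library 2, and Cacna1d lower with library totals and without thrombin library 2, thrombin library 3 or PD03 library 3. Over the named genes and all alternatives, 918 results kept their direction and side of the threshold, 20 lost a call and 16 gained one. A further 27 changed sign with no call before or after, in 7 genes (Osmr, Lcn2, Aldh3a1, Hsd11b1, Spon1, Gbp2 and LOC108352070); no called value changed sign. Low counts limit Cldn1, Mt1-ps3, Ccl11, Mmp12, Begain and Rasgrp2, each with under 10 counts in at least 1 library.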
